A study of Macaca mulatta with 20 samples.

Results

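The 10 genes described here control how the tissue around cells is cut and remodelled. They are the tissue inhibitors of metalloproteinases TIMP1, TIMP2 and TIMP3, the secreted proteases ADAMTS1, ADAMTS4, ADAMTS5 and ADAMTS9, the plasminogen activator urokinase (PLAU), its receptor PLAUR, and SERPINE2, a serpin that inhibits urokinase and thrombin. The 10 genes were chosen with earlier results of these data known, so their counts below are not those of a blind choice. Every probe set whose platform annotation gives exactly 1 gene symbol equal to one of the 10 was kept. This gave 28 of the 52707 probe sets tested and 10 of the 14132 genes with such a probe set.

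All 20 samples were corpora lutea, the glands that form from the ovulated follicle and secrete progesterone, from female rhesus macaques (Macaca mulatta) with normal menstrual cycles. The labels name no treatment, genotype or age, and the stage is the only factor. There were 4 glands for each of 5 stages, counted in days after the midcycle surge of luteinizing hormone (LH): early (days 3 to 5, luteal tissue forming), mid (days 7 to 8, peak progesterone output), mid-late (days 10 to 12, before luteolysis begins), late (days 14 to 16, progesterone secretion ending) and very-late (days 18 to 19, at menses, with the tissue being dismantled). The day of the LH surge was inferred from the fall of serum estradiol, and total RNA of each frozen gland went onto 1 Affymetrix rhesus array.

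The extracellular matrix of a gland is cut by metalloproteases and by plasmin, and each system has its own activators and inhibitors. TIMPs bind the active site of metalloproteases. TIMP1 and TIMP2 act mainly on matrix metalloproteinases, while TIMP3 is held in the matrix and also inhibits ADAMTS4 and ADAMTS5. ADAMTS proteases cut versican, aggrecan and related proteoglycans. ADAMTS1 is induced by LH and progesterone in the ovulating follicle, where versican of the cumulus matrix is one of its substrates. Urokinase, bound to its receptor on the cell surface, turns plasminogen into plasmin, and SERPINE2 on cells and matrix blocks urokinase, plasmin and thrombin. The corpus luteum builds a dense capillary bed as it forms and is dismantled when it regresses.

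Values are RMA values on a log2 scale, so a difference of 1 is a 2-fold difference in probe signal. A probe set has no common scale with another, so levels are compared between stages and not between genes. Of the 28 probe sets, 26 had a stage mean above 4.30, the 95th percentile of 674 viral-genome probe sets that stand for background; 1 probe set of ADAMTS5 and 1 of PLAUR did not. Each gene is described first by its brightest probe set (highest mean of all arrays), called the leading probe set, and then by the others. Differences are given ± standard error from a limma fit on all 20 arrays, with n = 4 arrays per stage, and passed the test where the adjusted p was under 0.05.

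The arrays differed in ways the stages do not name. The mean signal of the 4 of 6 mitochondrial probe sets that ranged over more than 3 (log2) split them into 7 low arrays (6.06 to 8.50) and 13 high ones (12.6 to 13.6); the 7 low ones were all 4 mid arrays, early array 4, mid-late array 1 and very-late array 2. The other 2 mitochondrial probe sets, at 11.07 to 12.63 and 6.23 to 7.75, were not used for the split. Very-late array 2 also had the lowest array weight from limma (0.396, others 0.621 to 1.73). Its correlation with the rest of its stage was the lowest too (0.973, others 0.986 to 0.996). The 3' minus 5' difference of GAPDH, a measure of RNA quality, was 2.70 in very-late array 1 against 0.831 to 1.78 in the others. The same difference of actin did not set this array apart. It was 0.117 there and ran from -0.199 (very-late array 2) to 0.973 (mid array 2) in the others. Some cell type markers moved with the very-late stage. The sums of endothelial, pericyte and smooth muscle, neutrophil and monocyte, lymphocyte and erythrocyte markers overlapped between late and very-late arrays. In limma 3 of 10 endothelial and 2 of 4 pericyte and smooth muscle markers were lower and 1 of 3 lymphocyte markers was higher. None of the neutrophil and monocyte or erythrocyte markers passed. The summed level of 11 macrophage markers was 11.39 to 11.97 (log2) in the late and 13.29 to 14.07 in the very-late arrays, with 7 of the 11 higher in limma, while ITGAM was not above background. The sum of 6 steroidogenic luteal cell markers was 14.30 to 14.60 in the late and 11.27 to 12.41 in the very-late arrays, with 5 of the 6 lower. The sum of 7 fibroblast markers was 13.59 to 13.94 and then 12.75 to 13.41, with 1 of the 7 higher and 2 lower. Their part in every very-late result below was not tested, and in RNA of whole glands fewer cells of a type and less RNA per cell cannot be told apart.

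The stages differed somewhere for 17 of the 28 probe sets in limma's moderated F test. Among all 52707 probe sets tested 21.5% passed, and among the 23430 above background 43.0%. By leading probe set, 7 of the 10 genes passed, where 33.6% of all genes did. The 7 were TIMP1, TIMP2, ADAMTS1, ADAMTS4, PLAU, PLAUR and SERPINE2; TIMP3, ADAMTS5 and ADAMTS9 did not pass by their leading probe sets.

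Among the inhibitors, TIMP1 fell and TIMP2 rose at the very-late stage, and TIMP3 did not pass in any comparison. TIMP1, a secreted inhibitor of most matrix metalloproteinases that also acts as a growth factor, gave a nearly flat signal through the first 4 stages. Its leading probe set stood at 13.82, 13.85, 13.83 and 13.91 in early arrays 1 to 4. The mid arrays were at 13.96, 14.01, 13.99 and 13.91, the mid-late arrays at 14.04, 13.84, 13.80 and 13.86, and the late arrays at 13.74, 13.85, 13.84 and 13.94. The very-late arrays were at 12.69, 12.60, 12.97 and 12.68. All 4 very-late arrays were below all 16 others, and the other 4 stages lay within a narrow band. From late to very-late TIMP1 fell by 1.11 ± 0.07 (2.16-fold, limma adjusted p = 1.142e-08), and against early it fell by 1.12 ± 0.07 (2.17-fold, adjusted p = 6.516e-09). In order of mean the stages ran from very-late (12.73 ± 0.16, SD) through late (13.84 ± 0.08), early (13.85 ± 0.04) and mid-late (13.89 ± 0.11) to mid (13.97 ± 0.04). The arrays of neighbouring stages in this order overlapped except between very-late and late. The values lie close to 14.28, the highest value in the whole table, and whether the signal was saturated there was not tested.

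The other 2 TIMP1 probe sets did not show this fall. One ranged over stage means by 0.26 around a mean of 7.98 (adjusted p = 0.43 for any difference between stages) and the other by 0.28 around 5.77 (adjusted p = 0.71). Their very-late arrays were at 8.20, 7.96, 7.64 and 7.87 and at 5.88, 5.76, 5.27 and 5.69, inside the range of the other stages. The fall of TIMP1 thus rests on 1 of its 3 probe sets, the one with the strongest signal, and the difference between probe sets was not tested.

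TIMP2, which inhibits matrix metalloproteinases and also helps to activate pro-MMP2 at the cell surface, was highest at the very-late stage. Its leading probe set was at 9.01, 8.46, 8.64 and 8.88 in the early arrays and at 8.76, 7.91, 8.81 and 8.61 in the mid arrays. The mid-late arrays were at 8.76, 8.55, 8.86 and 8.89, the late arrays at 8.99, 8.996, 8.84 and 8.92, and the very-late arrays at 9.44, 8.89, 9.89 and 9.97. Very-late array 2 lay inside the range of the earlier stages, and the other 3 very-late arrays lay above every earlier array. TIMP2 rose by 0.80 ± 0.21 from early to very-late (1.74-fold, adjusted p = 0.0108), or at adjusted p = 0.0722 on the 8 arrays of those stages alone. Its difference from late to very-late was 0.61 ± 0.21 and did not pass (adjusted p = 0.0635); it passed without very-late array 2 (0.83, adjusted p = 0.00519) or without mid array 2 (0.61, adjusted p = 0.0282). With all arrays kept it also passed with array weights (0.76, adjusted p = 0.0114), cyclic loess scaling, a term for the mitochondrial split (0.67, adjusted p = 0.0460), without dim probe sets (adjusted p = 0.0354) and with its probe sets averaged (0.62, adjusted p = 0.0196); among the 13 high mitochondrial arrays it was at 0.83 (adjusted p = 0.00248). It did not pass on the 8 arrays of both stages alone (adjusted p = 0.140). The stages ordered as mid (8.52 ± 0.42, SD), early (8.75 ± 0.24), mid-late (8.76 ± 0.15), late (8.94 ± 0.07) and very-late (9.55 ± 0.50), and the arrays of all neighbouring stages in this order overlapped.

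The second TIMP2 probe set gave the same direction. It was at 8.75, 8.86, 8.87 and 8.98 in the late arrays and at 9.99, 8.74, 9.60 and 9.67 in the very-late arrays. Again very-late array 2 was the low one. It rose by 0.84 ± 0.19 from early to very-late (adjusted p = 0.00328) and by 0.63 ± 0.19 from late to very-late (adjusted p = 0.0303). The rise from late was lost without late array 1, 2 or 3 or very-late array 1, 3 or 4 (0.47 to 0.64, adjusted p = 0.0638 to 0.112). On the 8 arrays of the stages compared alone both rises were lost. The rise from late was then at adjusted p = 0.1535 and the rise from early at adjusted p = 0.0538.

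TIMP3, the inhibitor bound to the matrix, has 1 probe set here. It was at 7.42, 7.48, 7.61 and 7.85 in the early arrays, at 8.26, 7.01, 8.28 and 8.62 in the mid arrays and at 8.30, 8.28, 9.02 and 8.89 in the mid-late arrays. The late arrays were at 8.24, 8.51, 8.19 and 8.25 and the very-late arrays at 8.86, 7.59, 8.30 and 7.74. All mid-late and late arrays lay above all early arrays, while the mid and very-late arrays overlapped the early ones. Any difference between stages was at adjusted p = 0.134. The mid-late minus early difference was 1.03 ± 0.30 (2.04-fold, adjusted p = 0.0659); it passed without mid array 2, very-late array 1 or very-late array 2 (adjusted p = 0.0175, 0.0408 and 0.0452). It also passed with array weights (1.10, adjusted p = 0.0110), without dim probe sets (adjusted p = 0.0353), on the 8 arrays of both stages (adjusted p = 0.0175), among the 13 high mitochondrial arrays (1.22, adjusted p = 0.0234) and with adjustment over genes instead of probe sets (adjusted p = 0.0411). The late minus early difference was 0.71 ± 0.30 (adjusted p = 0.190), and it passed on the 8 arrays of those stages (adjusted p = 0.00620). In order of mean the stages ran early (7.59 ± 0.19, SD), mid (8.04 ± 0.71), very-late (8.12 ± 0.58), late (8.30 ± 0.15) and mid-late (8.62 ± 0.39), and the arrays of all neighbours overlapped.

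**Figure D1:**
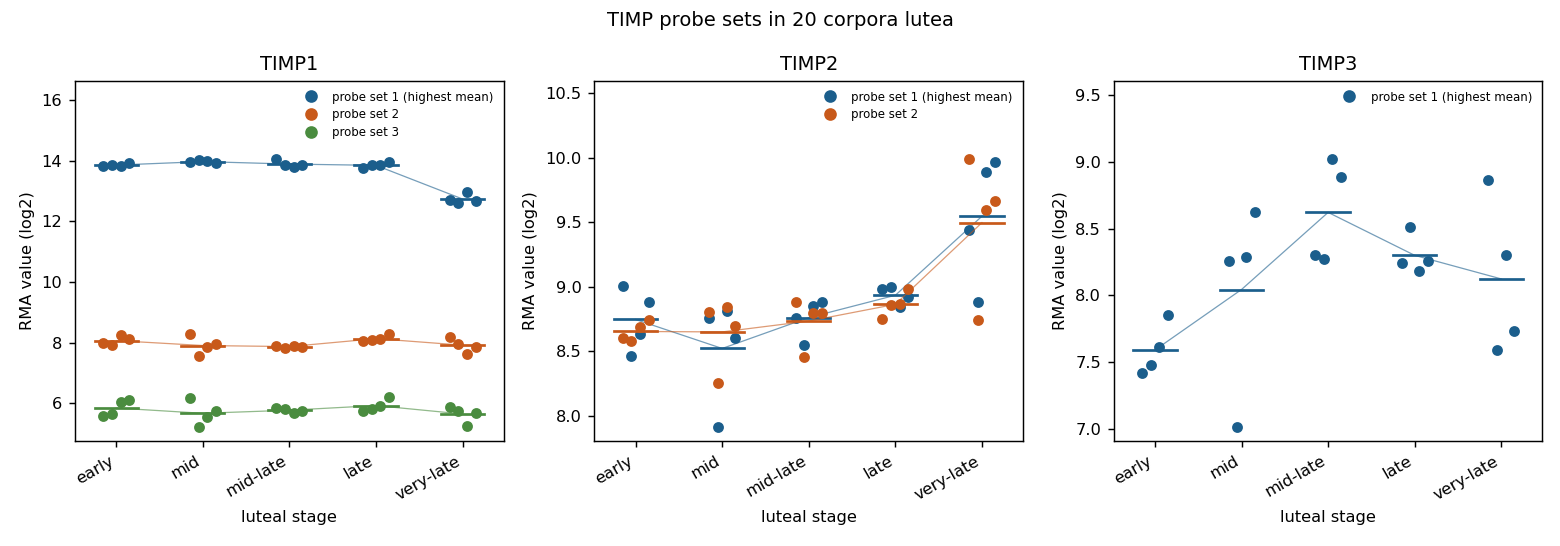
RMA values (log2, vertical axis) of the TIMP probe sets in the 20 corpora lutea by luteal stage; each point is 1 array, horizontal bars are stage means of 4 arrays and thin lines join them. The leading TIMP1 probe set drops to 12.60 to 12.97 in the very-late arrays while the other 2 stay level, and 3 of 4 very-late arrays of TIMP2 lie above all earlier ones.

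Of the ADAMTS proteases, ADAMTS1 and ADAMTS4 fell by more than 4-fold between the late and the very-late stage, ADAMTS5 was higher at mid-late and late than at early on some of its probe sets, and the probe sets of ADAMTS9 went different ways. ADAMTS1, the versican-cutting protease of the ovulating follicle, was at 9.41, 9.63, 8.23 and 10.02 in the early arrays and at 8.62, 8.80, 8.999 and 9.50 in the mid arrays. The mid-late arrays were at 9.08, 8.71, 8.63 and 9.08 and the late arrays at 9.58, 8.60, 8.42 and 8.15. The very-late arrays were at 7.19, 5.83, 6.88 and 6.69. All 4 very-late arrays lay below all 16 others, and the first 4 stages overlapped. ADAMTS1 fell by 2.04 ± 0.36 from late to very-late (4.11-fold, adjusted p = 0.000647) and by 2.67 ± 0.36 against early (6.39-fold, adjusted p = 2.811e-05). The means ordered as very-late (6.65 ± 0.58, SD), late (8.69 ± 0.62), mid-late (8.87 ± 0.24), mid (8.98 ± 0.38) and early (9.32 ± 0.77), and neighbours overlapped except very-late and late. Its second probe set fell by 2.01 ± 0.41 from late (adjusted p = 0.00218) and by 2.60 ± 0.41 against early (adjusted p = 0.000141).

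ADAMTS4, known as an aggrecanase that also cuts versican, followed a like course. Its leading probe set was at 8.80, 8.59, 8.87 and 9.56 in the early arrays, at 9.21, 9.09, 9.49 and 9.11 in the mid arrays and at 9.50, 8.73, 8.11 and 9.55 in the mid-late arrays. The late arrays were at 9.46, 8.22, 8.32 and 7.63 and the very-late arrays at 5.24, 6.05, 6.15 and 6.72. The very-late arrays were all below the lowest late array, and the late arrays spread more widely than the mid arrays. ADAMTS4 fell by 2.37 ± 0.37 from late to very-late (5.17-fold, adjusted p = 0.000223) and by 2.92 ± 0.37 against early (7.57-fold, adjusted p = 1.631e-05). The order was very-late (6.04 ± 0.61, SD), late (8.41 ± 0.77), early (8.96 ± 0.42), mid-late (8.97 ± 0.69) and mid (9.23 ± 0.18), and neighbours again overlapped except very-late and late. The platform annotation gives this probe set a human gene identifier, which was not matched to a macaque gene, while the second ADAMTS4 probe set carries the macaque one. That second probe set had stage means of 4.22 to 4.68, near background. Its very-late minus late difference was -0.46 ± 0.16 (adjusted p = 0.0638), which passed without late array 3 or 4 (adjusted p = 0.0433 and 0.0345) or without dim probe sets (adjusted p = 0.0388). Its very-late minus early difference passed without late array 1 (-0.35, adjusted p = 0.0124).

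ADAMTS5, the main aggrecanase of mouse cartilage and a versican-cutting enzyme, had stage means that rose from early through late. Its leading probe set was at 8.55, 8.01, 6.85 and 7.73 in the early arrays, at 8.18, 8.68, 9.05 and 8.35 in the mid arrays and at 9.25, 8.50, 8.84 and 8.86 in the mid-late arrays. The late arrays were at 9.02, 9.03, 9.28 and 9.16 and the very-late arrays at 8.39, 6.57, 9.11 and 9.13. The late arrays lay above all early arrays; at very-late, array 2 was below every early array while arrays 3 and 4 matched the late ones. The late minus early difference of this probe set was 1.33 ± 0.43 (2.52-fold) and did not pass (adjusted p = 0.0724). It passed without early array 1 (1.59, adjusted p = 0.0414) or without very-late array 2 (1.33, adjusted p = 0.00532), and without the latter the mid-late minus early (1.08, adjusted p = 0.0326) and very-late minus early differences (1.09, adjusted p = 0.0162) passed as well. The late minus early difference also passed with array weights (1.33, adjusted p = 0.0168), without dim probe sets (adjusted p = 0.0370), on the 8 arrays of both stages (adjusted p = 0.0263), among the 13 high mitochondrial arrays (1.32, adjusted p = 0.0246) and with the gene's probe sets averaged (1.03, adjusted p = 0.00861). The order was early (7.79 ± 0.71, SD), very-late (8.30 ± 1.21), mid (8.56 ± 0.39), mid-late (8.86 ± 0.31) and late (9.12 ± 0.12), and all neighbours overlapped.

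A second ADAMTS5 probe set passed from early to late. It was at 5.11, 4.46, 4.44 and 4.70 in the early arrays, at 6.34, 5.75, 5.94 and 5.91 in the mid-late arrays and at 6.09, 6.31, 6.53 and 6.04 in the late arrays. No mid-late or late array reached down to the early ones. It rose by 1.56 ± 0.34 from early to late (2.96-fold, adjusted p = 0.00712), a call kept when any 1 array was left out. Its rise of 1.31 ± 0.34 from early to mid-late (adjusted p = 0.0366) was lost without early array 2, 3 or 4 or any mid-late array (adjusted p = 0.0524 to 0.108). The third probe set, nearer background, rose by 1.04 ± 0.22 to mid-late (adjusted p = 0.0137) and by 0.85 ± 0.22 to late (adjusted p = 0.0234). The first of these was lost without mid-late array 3 or 4 (adjusted p = 0.0590 and 0.0531) and the other without early array 3 or late array 2, 3 or 4 (adjusted p = 0.0614 to 0.0789). The fourth was not above background at any stage. Without very-late array 2 the second probe set also passed from early to very-late (1.16, adjusted p = 0.00405).

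**Figure D2:**
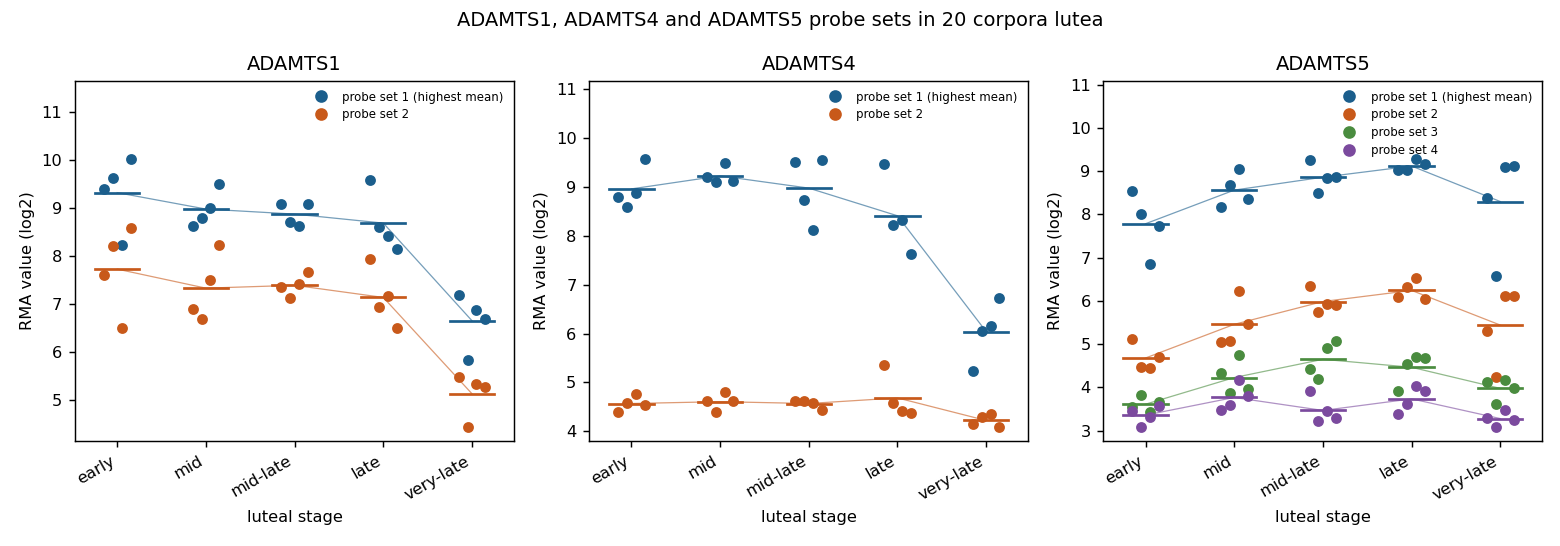
RMA values (log2) of the probe sets of ADAMTS1, ADAMTS4 and ADAMTS5 by luteal stage; points are arrays, bars are stage means of 4 arrays and lines join the means. ADAMTS1 and the leading probe set of ADAMTS4 drop at very-late (5.83 to 7.19 and 5.24 to 6.72), while ADAMTS5 rises to late and then spreads out, with very-late array 2 at 6.57.

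ADAMTS9, a widely expressed protease that cuts versican and aggrecan, has 5 probe sets that fall into 2 patterns. The leading one was at 7.65, 7.57, 7.51 and 7.44 in the early arrays, at 7.59, 7.57, 7.69 and 7.76 in the late arrays and at 8.02, 7.58, 7.84 and 7.99 in the very-late arrays. It hardly moved: it rose by 0.32 ± 0.09 from early to very-late (1.25-fold, adjusted p = 0.0167), a call lost without early array 4 or very-late array 1 or 4 (0.26 to 0.28, adjusted p = 0.0568 to 0.0621), with a trended and robust prior (adjusted p = 0.0595) and on the 8 arrays of those stages alone. From late to very-late it was at 0.21 ± 0.09 (adjusted p = 0.155; 0.30, adjusted p = 0.0176, without very-late array 2). The next probe set did not pass in any comparison, with stage means of 7.46 to 7.85. Its mid-late minus early difference passed with array weights (0.42, adjusted p = 0.0286) and on the 8 arrays of those stages (adjusted p = 0.0339).

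The other 3 ADAMTS9 probe sets fell. The strongest of them was at 7.81, 7.73, 8.18 and 8.80 in the early arrays, at 7.59, 7.73, 7.74 and 6.66 in the mid arrays and at 7.59, 7.13, 7.08 and 7.36 in the mid-late arrays. The late arrays were at 7.36, 7.18, 6.96 and 7.06 and the very-late arrays at 4.89, 4.93, 5.77 and 6.19. All late arrays lay below all early ones and all very-late arrays below all others. It fell by 1.70 ± 0.29 from late to very-late (3.24-fold, adjusted p = 0.000505) and by 2.69 ± 0.29 from early to very-late (6.45-fold, adjusted p = 2.503e-06). Its late minus early difference of -0.99 ± 0.29 passed narrowly (adjusted p = 0.0452) and was lost without early array 3 or 4, mid array 1 or 3, or any mid-late or late array (-1.07 to -0.77, adjusted p = 0.0508 to 0.154), and with a term for the mitochondrial split (-0.94, adjusted p = 0.0745) or among the 13 high mitochondrial arrays (-0.77, adjusted p = 0.0739). A further probe set fell by 1.51 ± 0.22 from late (adjusted p = 0.000113) and by 1.57 ± 0.22 from early (adjusted p = 4.958e-05), and the last fell by 0.86 ± 0.17 from early (adjusted p = 0.00132), with a very-late minus late difference of -0.41 ± 0.17 (adjusted p = 0.136).

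A direction for ADAMTS9 as a gene therefore depends on the probe set. The mean of its 5 probe sets fell from early to very-late by 0.90 (adjusted p = 3.2e-05 over genes) and from late to very-late by 0.68 (adjusted p = 0.00071), the opposite sign to the leading probe set. Which of the probe sets match which transcripts was not analysed here.

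**Figure D3:**
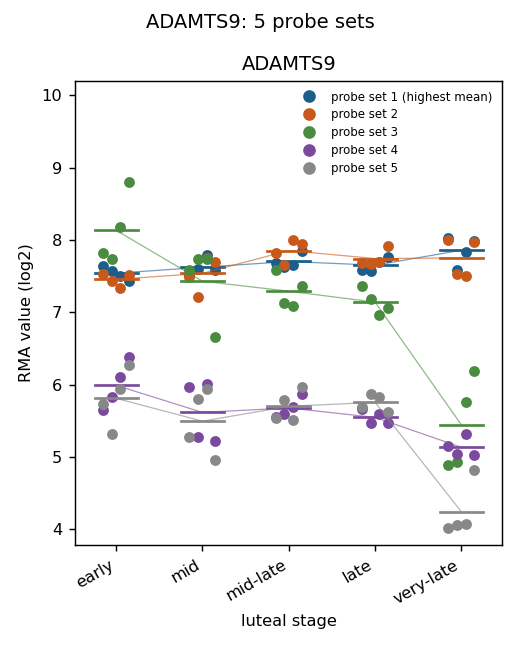
RMA values (log2) of the 5 ADAMTS9 probe sets by luteal stage; points are arrays, bars are stage means of 4 arrays. Probe sets 1 and 2 stay between 7.22 and 8.02, while probe set 3 drops to 4.89 to 6.19 and probe set 5 to 4.03 to 4.82 at very-late.

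In the plasminogen system, urokinase rose from the late to the very-late stage, its receptor was highest at early and lowest at mid-late and late, and SERPINE2 fell from late to very-late. PLAU, the urokinase-type plasminogen activator, was at 7.83, 8.05, 8.35 and 8.71 in the early arrays, at 7.61, 6.99, 7.57 and 7.02 in the mid arrays and at 7.13, 7.53, 7.36 and 7.63 in the mid-late arrays. The late arrays were at 7.31, 7.44, 7.74 and 8.01 and the very-late arrays at 9.03, 9.08, 9.15 and 8.30. All 4 very-late arrays lay above all late arrays, and all mid and mid-late arrays lay below all early ones. PLAU rose by 1.27 ± 0.22 from late to very-late (2.40-fold, adjusted p = 0.000567), a call kept when any 1 array was left out. Its second probe set, at 5.78, 5.92, 6.24 and 6.58 in the late and 6.72, 7.67, 7.49 and 6.80 in the very-late arrays, rose by 1.04 ± 0.26 (adjusted p = 0.0101).

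Against the early stage the leading PLAU probe set was lower in the middle of luteal life and higher at its end, but these differences were at the edge of the test. The mid minus early difference was -0.94 ± 0.22 (adjusted p = 0.0722). The mid-late minus early difference was -0.82 ± 0.22 (1.77-fold, adjusted p = 0.0459). That call was lost without early array 2, 3 or 4, mid array 3, any mid-late array, late array 2 or 3 or very-late array 1 (-0.89 to -0.66, adjusted p = 0.05001 to 0.142), with median centring (adjusted p = 0.0517), with its probe sets averaged (-0.68, adjusted p = 0.0786) and among the 13 high mitochondrial arrays (-0.57, adjusted p = 0.240). The very-late minus early difference was 0.65 ± 0.22 (1.57-fold, adjusted p = 0.0464), lost without early array 1, 2 or 3, mid-late array 2, 3 or 4, late array 2 or 3 or very-late array 1, 2 or 3 (0.52 to 0.69, adjusted p = 0.0524 to 0.149), with median centring or array weights (adjusted p = 0.0708 and 0.139), without very-late arrays 1 and 2 (0.49, adjusted p = 0.293) and on 8 arrays (adjusted p = 0.131). The order was mid (7.30 ± 0.34, SD), mid-late (7.41 ± 0.22), late (7.62 ± 0.32), early (8.24 ± 0.38) and very-late (8.89 ± 0.39), and the arrays of all neighbours overlapped. The second PLAU probe set did not pass against early at mid (-0.69), mid-late (-0.54) or very-late (0.70). Its very-late minus early difference passed without dim probe sets (adjusted p = 0.0379) and among the 13 high arrays (0.77, adjusted p = 0.0350).

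PLAUR, which anchors urokinase at the cell surface by a lipid tail, was at 6.92, 6.24, 6.20 and 8.26 in the early arrays and at 6.06, 5.51, 5.91 and 5.72 in the mid arrays. The mid-late arrays were at 5.69, 5.03, 5.26 and 5.08, the late arrays at 5.27, 5.21, 5.20 and 5.45 and the very-late arrays at 5.11, 7.31, 6.01 and 5.75. Every mid, mid-late and late array lay below every early array. The highest values at the early and the very-late stage were early array 4 and very-late array 2, and the highest mid-late value was mid-late array 1, all of the low mitochondrial arrays. PLAUR fell by 1.64 ± 0.41 from early to mid-late (3.12-fold, adjusted p = 0.0306) and by 1.63 ± 0.41 from early to late (3.09-fold, adjusted p = 0.0187). The fall to mid-late was lost without early array 1 or 4 or mid-late array 2, 3 or 4 (-1.64 to -1.19, adjusted p = 0.0565 to 0.0844) and on the 8 arrays of those stages (adjusted p = 0.0562). The fall to late was lost without early array 4 (-1.17, adjusted p = 0.0565) or late array 3 (-1.60, adjusted p = 0.0501). The order was mid-late (5.27 ± 0.30, SD), late (5.28 ± 0.12), mid (5.80 ± 0.24), very-late (6.04 ± 0.92) and early (6.91 ± 0.96), and neighbours overlapped except late and mid.

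The second PLAUR probe set held more firmly. It was at 6.33, 6.49, 5.94 and 7.78 in the early arrays, at 5.42, 4.79, 4.90 and 4.90 in the mid-late arrays, at 4.63, 4.78, 4.75 and 5.19 in the late arrays and at 5.85, 6.76, 5.59 and 5.62 in the very-late arrays. It was lower in all mid-late and late arrays than in any early one, and higher again in all very-late arrays. It fell by 1.63 ± 0.30 from early to mid-late (adjusted p = 0.00655) and by 1.80 ± 0.30 to late (3.48-fold, adjusted p = 0.00139). From late to very-late it rose by 1.12 ± 0.30 (2.17-fold, adjusted p = 0.0182), lost without very-late array 2 (0.85, adjusted p = 0.0680) and without very-late arrays 1 and 2 (0.77, adjusted p = 0.202), while the leading probe set was at 0.76 ± 0.41 (adjusted p = 0.275). Without very-late array 2 both probe sets passed as lower at very-late than at early (-1.28, adjusted p = 0.0164, and -0.95, adjusted p = 0.0281). The third PLAUR probe set was not above background. With its probe sets averaged PLAUR rose by 0.67 from late to very-late (adjusted p = 0.0429 over genes).

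Within stages, PLAUR was lower in the high than in the low mitochondrial arrays, by -1.35 ± 0.21 on the leading probe set (adjusted p = 0.0158) and by -1.05 ± 0.15 on the second (adjusted p = 0.00528). Of all 52707 probe sets 72 passed for this split, 2 of them among the 28, and both are of PLAUR. With a term for the split, the mid minus early difference passed (-2.12, adjusted p = 0.0149, and -1.91, adjusted p = 0.000854), although all 4 mid arrays are in the low group and the split and the mid stage cannot be told apart. Among the 13 high arrays alone, which hold no mid array, the leading probe set fell by 1.33 from early to mid-late (adjusted p = 0.0113), by 1.17 to late (adjusted p = 0.00518) and by 0.83 to very-late (adjusted p = 0.0210). Its very-late minus late difference there was 0.34 (adjusted p = 0.374), and that of the second probe set 0.85 (adjusted p = 0.00197).

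SERPINE2, also called protease nexin-1, was at 10.97, 9.47, 11.44 and 10.86 in the early arrays, at 10.44, 9.52, 9.98 and 9.98 in the mid arrays and at 9.94, 11.14, 9.30 and 9.65 in the mid-late arrays. The late arrays were at 10.84, 10.83, 11.09 and 10.77 and the very-late arrays at 9.46, 9.08, 9.60 and 9.85. The late arrays stood together at the high end and the very-late arrays at the low end without overlap, while the early and mid-late arrays each spread over both. SERPINE2 fell by 1.38 ± 0.37 from late to very-late (2.61-fold, adjusted p = 0.0165) and by 1.19 ± 0.37 against early (2.28-fold, adjusted p = 0.0312). All 4 of its probe sets passed in both comparisons, with falls of 1.38 to 1.60 from late and of 1.19 to 1.52 from early. The order was very-late (9.50 ± 0.32, SD), mid (9.98 ± 0.38), mid-late (10.01 ± 0.80), early (10.69 ± 0.85) and late (10.88 ± 0.14), and the arrays of all neighbours overlapped. For any difference between stages its 4 probe sets lay around the threshold (adjusted p = 0.0464 to 0.0679).

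The SERPINE2 calls turned on several single arrays. That from late was lost on the leading probe set without late array 3 (-1.32, adjusted p = 0.0512) or very-late array 2 (-1.24, adjusted p = 0.0521), without very-late arrays 1 and 2 (-1.15, adjusted p = 0.158), with array weights (adjusted p = 0.0557) and among the 13 high mitochondrial arrays (-1.24, adjusted p = 0.105). That from early was lost without early array 1, 3 or 4 or very-late array 1, 2 or 3 (-1.22 to -0.94, adjusted p = 0.0501 to 0.117), without very-late arrays 1 and 2 (-0.96, adjusted p = 0.206), with cyclic loess scaling (-0.99, adjusted p = 0.0768) or array weights (-0.98, adjusted p = 0.154), on 8 arrays (adjusted p = 0.0956) and among the 13 high arrays (-0.99, adjusted p = 0.223). The other SERPINE2 probe sets also lost both calls with array weights, without very-late arrays 1 and 2 and among the 13 high arrays. Their limma adjusted p was then 0.0658 to 0.1965 from late and 0.113 to 0.209 from early. On 8 arrays they lost only the call from early (adjusted p = 0.0781 to 0.09635).

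**Figure D4:**
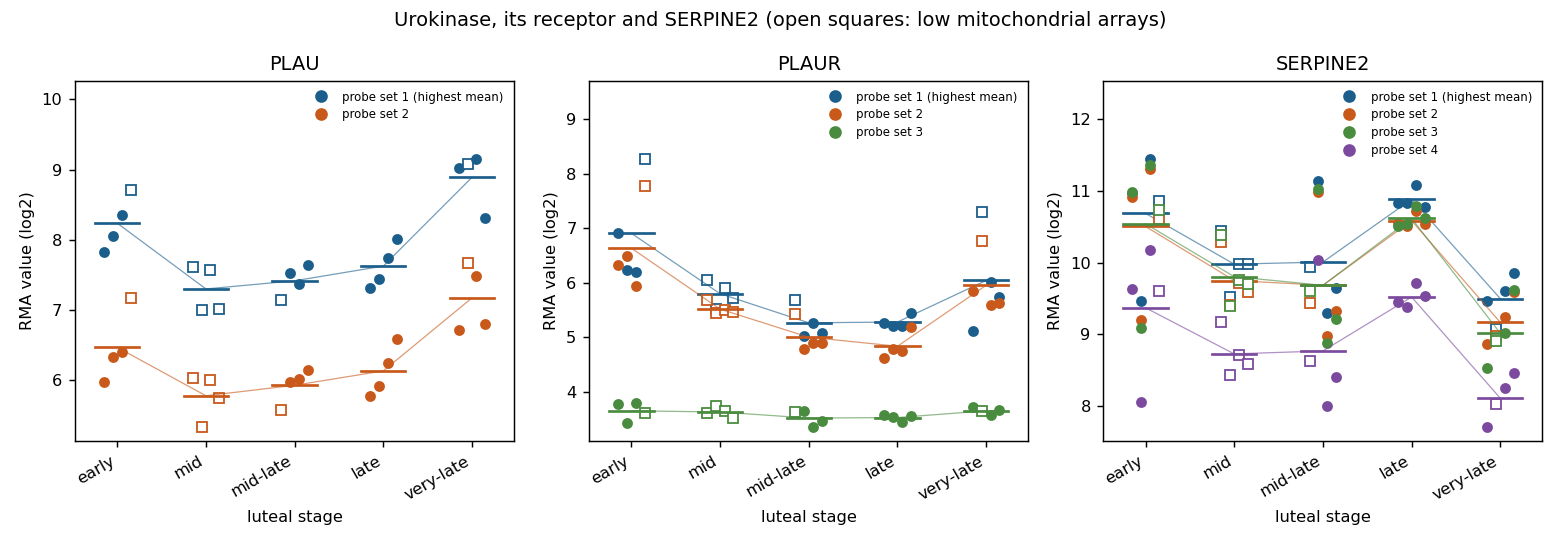
RMA values (log2) of the probe sets of PLAU, PLAUR and SERPINE2 by luteal stage; points are arrays, open squares are the 7 arrays with low mitochondrial signal, and bars are stage means of 4 arrays. PLAU is highest at very-late (8.30 to 9.15), the early and very-late peaks of PLAUR (8.26 and 7.31) are open squares, and SERPINE2 drops from 10.77 to 11.09 at late to 9.08 to 9.85 at very-late.

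Counted over the comparisons, few of the 28 probe sets passed before the very-late stage. From early to mid, 0 of the 28 probe sets passed (0.362% of all probe sets did); at an unadjusted p under 0.05, 3 were higher and 6 lower. From early to mid-late 2 were higher (both ADAMTS5) and 3 lower (PLAU and both PLAUR probe sets above background), where 3.73% of all probe sets passed, 1.62% higher and 2.10% lower. From early to late 2 were higher (ADAMTS5) and 3 lower (2 of PLAUR and 1 of ADAMTS9), against 7.58% of all, 3.61% higher and 3.97% lower. By leading probe set 2 genes passed from early to mid-late (PLAU and PLAUR, against 6.31% of all genes) and 1 from early to late (PLAUR, against 12.3%), all lower. From mid to mid-late and from mid-late to late 0 passed, against 0.0114% in each. At an unadjusted p under 0.05, 1 was higher and 0 lower, and 3 were higher and 0 lower. The percentages are for the adjusted p. No share of all probe sets at the unadjusted threshold is given, so the unadjusted counts are no result about the members. The median difference of the 10 leading probe sets was -0.07, 0.02, 0.05, 0.05 and -0.01 in these 5 comparisons, beside -0.02, -0.03, -0.02, -0.01 and 0.00 for all genes.

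From late to very-late 4 of the 28 probe sets rose and 10 fell, where 13.8% of all probe sets passed, 6.75% higher and 7.03% lower. The median difference of the 10 leading probe sets was -0.50, beside 0.01 for all genes. The 4 were 1 of TIMP2, 2 of PLAU and 1 of PLAUR. The 10 were 1 of TIMP1, 2 of ADAMTS1, 1 of ADAMTS4, 2 of ADAMTS9 and 4 of SERPINE2. By leading probe set 1 gene rose (PLAU) and 4 fell (TIMP1, ADAMTS1, ADAMTS4 and SERPINE2), where 21.4% of all genes passed. Against early, 4 probe sets were higher and 11 lower (18.7% of all passed, 9.45% higher and 9.21% lower), with a median of -0.27 over the leading probe sets beside -0.01 for all genes; by leading probe set 3 genes were higher (TIMP2, ADAMTS9 and PLAU) and 4 lower, where 28.9% passed. Both comparisons use the same 4 very-late arrays. Probe sets of a gene share their target, so the counts of probe sets are not counts of independent changes. Most of the 28 were above background, while the shares for single comparisons are of all probe sets or all genes. No share among those above background is given for single comparisons. Over all stages it was 43.0%, beside 21.5% of all probe sets.

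**Figure D5:**
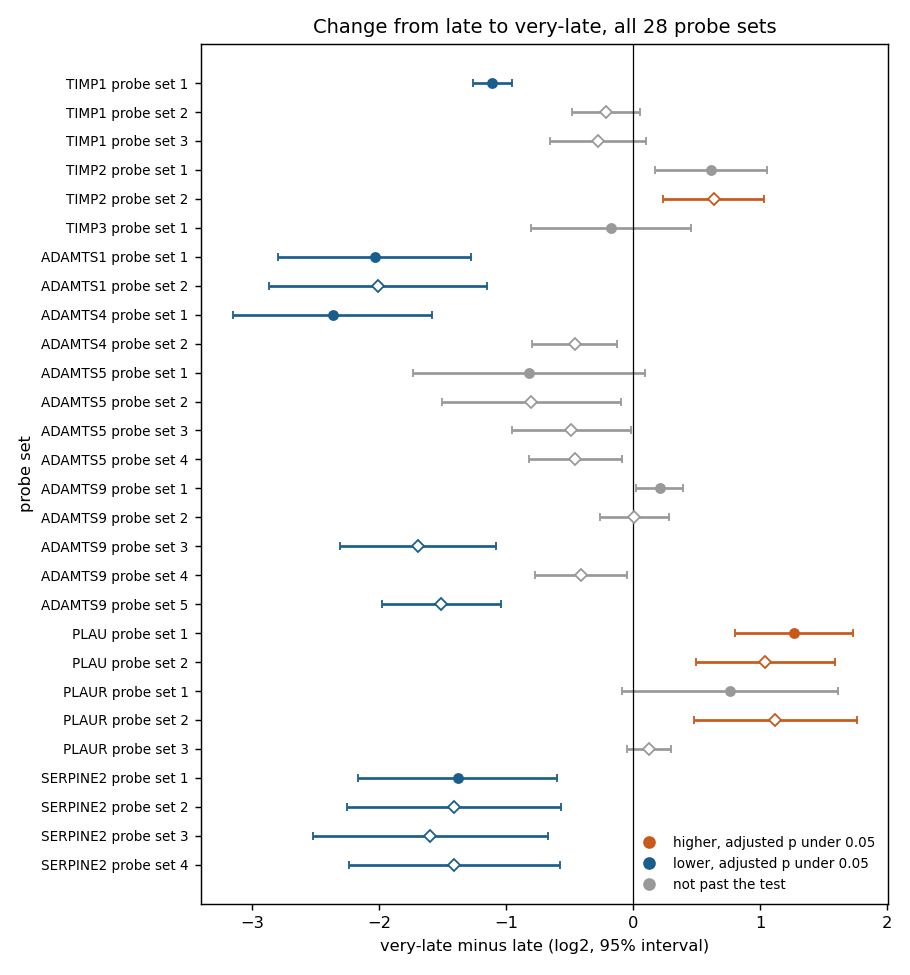
Very-late minus late difference (log2, horizontal axis) of each of the 28 probe sets with its 95% interval from limma, n = 4 arrays per stage; filled circles are leading probe sets, open diamonds the others, and colours mark an adjusted p under 0.05. The 4 SERPINE2 and 2 ADAMTS1 probe sets lie together on the low side and the 2 PLAU probe sets on the high side, while TIMP1, TIMP2, ADAMTS4, ADAMTS9 and PLAUR hold probe sets of both kinds, called and not called.

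Other genes of the same systems were read from fixed lists, each gene by its leading probe set. Among all genes 33.6% passed over all stages and 21.4% from late to very-late, and a count near these shares is no result about its list. Of 5 measured metalloproteinase inhibitors beside the TIMPs, 2 passed over all stages. RECK, a membrane-anchored inhibitor, was at 5.51, 6.29, 6.47 and 6.13 in the late and at 4.33, 2.92, 4.57 and 4.65 in the very-late arrays and fell by 1.98 ± 0.29 (adjusted p = 0.000121). TFPI2, a Kunitz inhibitor of plasmin and matrix proteases, was at 7.85, 6.81, 9.06 and 8.66 in the early arrays and at 4.46, 5.12, 5.01 and 4.85 in the very-late arrays. It fell by 3.23 ± 0.56 from early to very-late (adjusted p = 0.000381), and 3 of its 5 probe sets passed. Its mid minus early difference of -2.82 ± 0.56 (adjusted p = 0.0371) was lost without any one of early arrays 1, 3 or 4, mid arrays 2, 3 or 4, mid-late array 4 or late arrays 2, 3 or 4 (-2.90 to -2.50, adjusted p = 0.0506 to 0.131). Of the 5 inhibitor genes, 0 rose and 1 (RECK) fell from late to very-late. TIMP4 and A2M were not analysed here.

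Of 13 other ADAMTS proteases 4 passed over all stages, near the 33.6% of all genes, and from late to very-late 2 rose and 3 fell, where 21.4% of all genes passed. ADAMTS3, a procollagen peptidase, was at 6.54, 6.95, 7.07 and 6.83 in the late arrays and at 3.72, 3.52, 3.82 and 5.06 in the very-late arrays. It fell by 2.82 ± 0.29 (adjusted p = 2.391e-06). ADAMTS6 rose by 1.47 ± 0.36 from early to late (adjusted p = 0.0158) and then fell by 2.22 ± 0.36 to very-late (adjusted p = 0.000264). The rise was lost without early array 3 (1.15, adjusted p = 0.0624) or late array 4 (1.32, adjusted p = 0.0555). Its very-late array 2 was at 3.59, below the background limit. ADAMTS2, also a procollagen peptidase, fell by 1.60 ± 0.31 from late to very-late (adjusted p = 0.00145). ADAMTS10, which binds fibrillin microfibrils, was at 7.57, 7.51, 7.60 and 7.64 in the late arrays and at 9.75, 9.38, 8.85 and 9.24 in the very-late arrays. It rose by 1.73 ± 0.13 (adjusted p = 5.867e-08), on 1 of its 3 probe sets. Of 6 ADAMTS-like proteins, which lack the protease domain, 1 passed: ADAMTSL4, at 4.76, 6.02, 4.93 and 4.53 in the very-late arrays, rose by 0.82 ± 0.22 from late (adjusted p = 0.0168), or by 0.50 without very-late array 2 (adjusted p = 0.0171), and the call was lost on the 8 arrays of both stages (adjusted p = 0.131).

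Of 16 proteoglycan substrates and partners 4 passed over all stages (33.6% of all genes), and 1 rose and 5 fell from late to very-late (21.4% of all genes passed). TNFAIP6, which links hyaluronan to heavy chains in the cumulus matrix, was at 8.91, 8.39, 8.43 and 8.40 in the late arrays and at 6.13, 4.47, 5.74 and 6.58 in the very-late arrays. It fell by 2.80 ± 0.42 (adjusted p = 0.000146). VCAN, versican, fell by 2.21 ± 0.30 from early to very-late (adjusted p = 3.205e-05). From late to very-late it was at -1.01 ± 0.30 (adjusted p = 0.0297), a call lost without late array 2, 3 or 4 or very-late array 1, 3 or 4 (-1.02 to -0.89, adjusted p = 0.0615 to 0.102). CD44, a hyaluronan receptor, rose by 0.97 ± 0.20 from near background (adjusted p = 0.00223). HSPG2, the basement membrane proteoglycan perlecan, fell by 1.06 ± 0.21 from early to very-late (adjusted p = 0.00149); its fall of 0.67 ± 0.21 from late (adjusted p = 0.0444) was lost without early array 1 or 4, mid array 1 or 3, any mid-late or late array, or very-late array 1 or 2 (-0.73 to -0.46, adjusted p = 0.0521 to 0.154).

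Of 17 other plasminogen system genes 8 passed over all stages, beside 33.6% of all genes, and from late to very-late 2 rose and 3 fell, beside 21.4%. SERPINA5, the protein C inhibitor, which also inhibits urokinase, was at 9.50, 8.79, 9.03 and 8.68 in the late arrays and at 3.99, 7.30, 6.70 and 5.90 in the very-late arrays. It fell by 3.03 ± 0.74 (adjusted p = 0.00860), on 1 of its 2 probe sets. ST14, the membrane protease matriptase, which can activate pro-urokinase, was at 6.88, 6.75, 6.81 and 7.04 in the late arrays and at 9.34, 9.37, 7.78 and 8.99 in the very-late arrays. It rose by 2.00 ± 0.27 (adjusted p = 4.628e-05), and 3 of its 5 probe sets passed. S100A10, part of a plasminogen receptor at the cell surface, fell by 1.49 ± 0.24 from early to late (adjusted p = 0.000870) and rose by 1.20 ± 0.24 from late to very-late (adjusted p = 0.00168), or by 0.70 without very-late arrays 1 and 2 (adjusted p = 0.0524). SERPINB6, an intracellular serpin, fell by 1.86 ± 0.27 from early to very-late (adjusted p = 6.036e-05). PLAT, the tissue-type activator, was not analysed here.

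The genes whose course over the 20 arrays was nearest to each member that passed with a range of stage means of at least 1 were found by the root mean square difference of centred log2 values. For TIMP1 they were SLC38A10 (0.113), STK39 (0.142) and P4HB (0.154), where the standard deviation of TIMP1 itself was 0.471. ADAMTS1 was nearest to H1-2 (0.397), CRISPLD2 and PRDX4, with a standard deviation of 1.06, and ADAMTS4 to SPRY4 (0.416), EHD3 and CDK2AP1, with 1.27. PLAU was nearest to GLIPR2 (0.311), LOC696937 and DAPK1, against 0.661, and PLAUR to MMP1 (0.452), MT1E and PHLDA2, against 0.809. TIMP2 was nearest to PTGES3 (0.253), FGD4 and RCOR3, against 0.445, and SERPINE2 to POR (0.471), EEF2KMT and EP400, against 0.706.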

How the data were processed

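Total RNA (2 µg) was labelled with biotin and hybridised to Affymetrix rhesus arrays, per the labels' protocols. The authors deposited log2 values made with RMA, per the submitters' processing notes; the version and chip definition are not given in the sources used here. RMA scales all arrays to 1 distribution, so a shift shared by most genes would not be seen. The values were used as deposited. The table holds 52865 probe sets, of which 158 are controls of the array and were not tested. In R 4.3.3, limma 3.58.1 fitted the 5 stage means to all 20 arrays (15 residual and 2.75 prior degrees of freedom), with two-sided tests of 7 comparisons and of any difference, and Benjamini-Hochberg adjustment over 52707 probe sets. Probe sets were named from the platform annotation (24956 with 1 symbol, 361 with several, 27390 with none); 27 of the 28 gene identifiers were found in the current macaque table. The procedure was tested on simulated data.

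The named genes are the 10 members and, of each list, up to 4 genes with the largest range of stage means among those past the test over all stages. The members and lists were chosen with earlier results of these data known. The alternatives were another prior, cyclic loess, median centring, a filter on dim probe sets, the replicate number as a block, array weights, a term for the mitochondrial split, fits without very-late arrays 1 and 2, on 8 arrays, or without each array, and averaging all probe sets per gene; the fit on the 13 high mitochondrial arrays was chosen after seeing the data. The labels do not state that the replicate numbers pair the arrays. Separate animals are implied only by the word biological, so p-values measure the spread between these samples. The number of arrays limits the precision. No sequences are printed.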

Additional observations from a re-analysis of the deposited data

Results flagged for a closer look

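In 4 of 140 groups of 4 arrays (28 probe sets at 5 stages) the highest or lowest array stood apart from the other 3 by Dixon's criterion; chance flags about 1 in 20 groups. All 4 are the array numbered 4 of its stage, and 3 are of ADAMTS9. In the second ADAMTS9 probe set, late array 4 was high at 7.92, where the nearest was 7.70. In the third, mid array 4 was low at 6.66 (nearest 7.59), and in the fifth, very-late array 4 was high at 4.82 (nearest 4.07). In the leading PLAU probe set, very-late array 4 was low at 8.30 (nearest 9.03).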

How the results depend on the processing

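Counts of probe sets passing moved by over 1.5 times in these fits: from early to mid, 0 became 1 without dim probe sets and 2 with a term for the mitochondrial split; from early to mid-late, 5 became 3 with the replicate number as a block; and from early to very-late, 15 became 7 on the 8 arrays of those stages. Leaving out 1 array gave 14 to 19 for any difference, 0 to 0 from early to mid, 1 to 7 to mid-late, 2 to 6 to late and 10 to 16 to very-late. It gave 0 to 0 from mid to mid-late and from mid-late to late, and 10 to 15 from late to very-late. With all probe sets of each gene averaged, ADAMTS9 turned to -0.90 from early to very-late and to -0.68 from late to very-late; its probe sets differ in direction. With averaging, and adjustment over 14132 genes in place of all probe sets, 8 genes passed from late to very-late, against 5. The replicate block gave 15 from late to very-late against 14, and 12 from early to very-late. Of 40 same-numbered pairs of arrays 6 had deviations correlated over 0.1 (median -0.018). Of 120 differently numbered pairs 31 did (median -0.0098). These values cannot show whether a number marks a shared factor. With the block, adjusted p was 0.0648 and 0.0618 for PLAU at mid-late and very-late against early, 0.0540 for PLAUR at mid-late and 0.0503 for SERPINE2 at very-late against early, 0.0699 for the third ADAMTS9 probe set at late against early, and 0.0203 for TIMP2 at very-late against late. No scaling moved the median of all probe sets by over 0.1. The limits are 4 arrays per stage, mixed tissue and probe sets near background.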
